A study of Sus scrofa with 80 samples.

Results

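The genes MYH2, MYL1, MYLPF, TNNC2, CKM and ENO3 are transcripts of skeletal muscle that were followed through 5 pig tissues which are not muscle. They were chosen by their measured values, as genes that stood far apart in single backfat and thyroid pieces, and for the level of CKM in the adenohypophysis, so that these levels are given as a description and without a test. All 6 genes were found, each as the only symbol of 1 probeset in the annotation of the array, among 6765 annotated genes and 23999 probesets.

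Arrays were made from backfat (FATB), from the thyroid gland (THYG), from the adenohypophysis without the neurohypophysis (AHYP), from the hypothalamus (HYPO) and from the gonads (GONA), which were 9 testes (GONAM) and 7 ovaries (GONAF). They came from 16 pigs of 4 breeds, with 1 array for each pig and tissue, 80 in all. Large White (LW, mean age 87 days and 27.2 kg), Duroc (DU, 83 days and 23.1 kg) and Iberian (IB, 89 days and 17.4 kg) each had 2 males and 2 females, and Youli (YL, 80 days and 18.9 kg), a line bred from Landrace and a Chinese and European hybrid, had 3 males and 1 female. The pigs, bought from breeding companies, were kept together on the same diets from weaning and fasted before slaughter, and no group received a treatment. An animal is named by breed, sex and number, so that YLM19 is a Youli male and DUF14 a Duroc female.

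A muscle fibre contracts when calcium binds to troponin on the thin filament and so lets the myosin heads of the thick filament pull. Fast fibres and slow fibres use different genes for almost every part of this machine, and fast fibres lean on glycolysis and on the phosphocreatine store for their energy. In a young pig a thin muscle layer lies close to the backfat, and muscles of the neck lie around the thyroid gland. MYH2 codes for the myosin heavy chain of fast oxidative fibres, MYL1 for the essential and MYLPF for the regulatory light chain of fast fibres, and TNNC2 for fast troponin C, the subunit that binds calcium. CKM is the muscle form of creatine kinase, which regenerates ATP from phosphocreatine, and ENO3 the beta form of enolase, an enzyme of glycolysis.

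Values are GCRMA expression levels on the log2 scale, so that a difference of 1 is a doubling of the signal. Each probeset has its own floor, which lay near 2 to 3 for 5 of the genes and near 4 for ENO3, and a gene near it is said to be at background. Levels of different probesets are not set against each other. A level of log2 5 was used as a mark only, and the number of arrays limits the precision throughout. Fewer muscle fibres in a piece and less RNA per fibre cannot be told apart in such samples.

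Some arrays lacked markers of their label or carried transcripts of another tissue, and the origin of these transcripts was not tested. The gonad of IBF25, labelled as ovary, lacked defining markers of the ovary: FST was at 2.22 there and at 9.60 or above in the other 6 ovaries, and ZP2, a coat protein of the oocyte, at 1.95 against 5.62 or above. Pituitary hormones were found outside AHYP: PRL was at 13.74 in the thyroid piece of YLM20, 11.28 in that of YLM19, 11.34 in the hypothalamus of YLM19 and 7.58 in the backfat of YLM20. Of 11 adenohypophysis genes, 6 were at least log2 2 above the group median in the thyroid piece of YLM20. The count was 5 in the hypothalamus of YLM19. It was 4 in the thyroid piece of YLM19, in the hypothalamus of DUF13 and IBM24 and in the backfat of YLM20. In the pieces just named at most 0.354% of all probesets were so far above the group median. At most 3 of the 11 genes were so in any other piece outside AHYP. The hypothalamus of LWF06 had 5 of 13 hypothalamus genes above log2 5, against 9 or more in the other 15, with PMCH, a hormone of the lateral hypothalamus, at 2.68 against 6.13 or above. The adipocyte genes ADIPOQ (11.53 or above) and FABP4 (13.55 or above) were high in all 16 FATB arrays, and the thyroid gene TG (13.81 or above) in all 16 THYG arrays. In THYG the title of 11 of 16 arrays conflicted with the breed and sex fields, and the title was used.

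In FATB the transcripts were very unequal between animals. All 6 genes were above log2 5 in 5 backfat pieces (YLM19, DUM12, DUF14, LWF06 and IBF22), 1 or 2 of the genes were above it in 2 pieces (YLF21 and LWM04), and none was above it in the other 9. Outside FATB no array of 64 had all 6 above this mark, and the most found in one array was 2.

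Of the thick filament genes, MYH2 was at 15.55 in YLM19, 8.79 in DUM12, 8.06 in LWF06, 6.96 in DUF14, 6.31 in YLF21 and 5.82 in IBF22, and between 2.86 and 4.72 in the other 10 backfat pieces. MYL1 was at 14.65 in YLM19, 11.51 in DUM12, 10.99 in DUF14, 8.38 in LWF06 and 6.71 in IBF22, and at 3.63 or below in the remaining 11. MYLPF took the same order, with 14.80, 10.69, 10.42, 7.59 and 5.79 in these 5 pieces and at most 3.58 elsewhere in FATB. The backfat of YLM19 thus lay apart from all others, and DUM12 and DUF14 lay apart from the rest for both light chains but not for MYH2.

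TNNC2 of the thin filament was at 14.85 in YLM19, 11.01 in DUM12, 10.47 in DUF14, 7.82 in LWF06 and 6.85 in IBF22. YLF21, YLM18 and YLM20 followed at 4.49, 4.05 and 3.97 and LWM04 at 3.75, and the other 7 pieces were between 2.42 and 2.63. The 4 Youli pieces were hence all above these 7.

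Of the energy genes, CKM was at 14.57 in YLM19, 11.04 in DUM12, 10.92 in DUF14, 7.92 in LWF06, 7.05 in IBF22, 5.79 in LWM04 and 5.18 in YLF21. It was at 4.95 in YLM18, 4.66 in YLM20, 3.82 in DUF13 and 3.49 in LWF05, and between 2.24 and 2.58 in the other 5 pieces. CKM thus passed log2 5 in 7 pieces. ENO3 was at 14.72 in YLM19, 10.99 in DUM12, 10.20 in DUF14, 7.77 in LWF06 and 5.06 in IBF22, and the other 11 pieces were between 4.04 and 4.24.

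**Figure D1:**
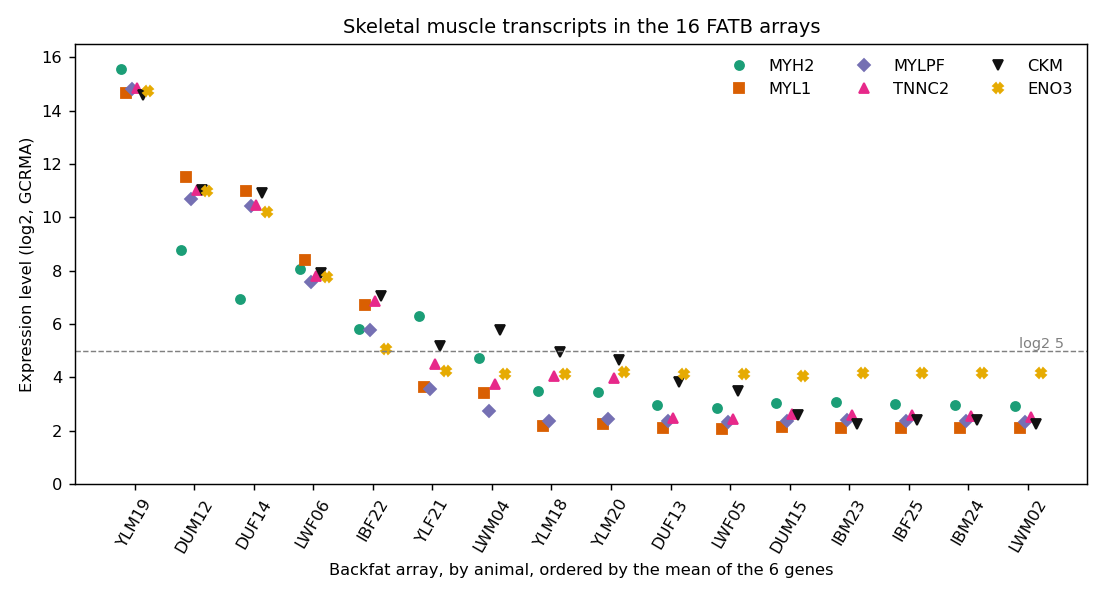
Expression level (log2, GCRMA) of the 6 genes, each with its own symbol, in the 16 FATB arrays, ordered from left to right by the mean of the 6 genes; the dashed line is log2 5. The array of YLM19 lies between 14.57 and 15.55 for all 6 genes, DUM12, DUF14, LWF06 and IBF22 follow, and MYH2 is the gene for which DUF14 lies below LWF06.

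The distance between pieces was not the same for all genes. YLM19 exceeded DUM12 by 3.13 (MYL1) to 4.11 (MYLPF) on the log2 scale in 5 of the genes, that is 8.78 to 17.3 times, whereas for MYH2 the difference was 6.76, or 108 times. DUF14 exceeded LWF06 by 2.43 (ENO3) to 2.995 (CKM) in those 5 genes, but for MYH2 the difference was -1.11. The order of the pieces for MYH2 therefore differed from the order for the other members. The levels of YLM19 lie close to the highest value of all arrays, 16.04, and whether signals are compressed there was not tested. Across the 16 FATB arrays the 15 pairs of members were correlated with Pearson's r between 0.926 and 0.995, a description only, over arrays that include the 5 high pieces.

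Fast and slow fibre genes separated the pieces further. Of 4 measured fast fibre genes other than the members, TNNT3, TNNI2 and MYOZ1 were above log2 5 in YLM19, DUM12 and DUF14, and at least log2 2 above the FATB median in LWF06 too, but none of the 4 was so in IBF22. TNNT3, the fast troponin that binds tropomyosin, was at 14.27 in YLM19, 8.74 in DUM12, 8.06 in DUF14, 4.49 in LWF06, 3.40 in IBF22 and at most 2.16 elsewhere. The slow fibre genes were high in 3 of these pieces only. MYH7, the slow myosin heavy chain, was at 12 in YLM19, 8.82 in DUF14 and 7.53 in DUM12, and between 2.38 and 3.09 in all other FATB pieces, LWF06 and IBF22 included. MYL2, the slow regulatory light chain, was at 13.26, 9.21 and 8.20 in YLM19, DUF14 and DUM12, at 3.50 in IBF22 and at 2.06 in LWF06.

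The order of the 2 Duroc pieces turned between the fibre types. For MYH7, MYL2, TNNC1, TNNT1, TNNI1 and MYBPC1 the level in DUF14 was above that in DUM12 (TNNC1 at 8.83 against 7.24, TNNT1 at 8.53 against 7.31, TNNI1 at 6.03 against 4.78, MYBPC1 at 8.43 against 7.83). For the 6 members DUM12 was above DUF14, by 0.12 (CKM) to 1.84 (MYH2). LWF06 held fast fibre transcripts with the slow fibre genes at the level of pieces without muscle transcripts.

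**Figure D2:**
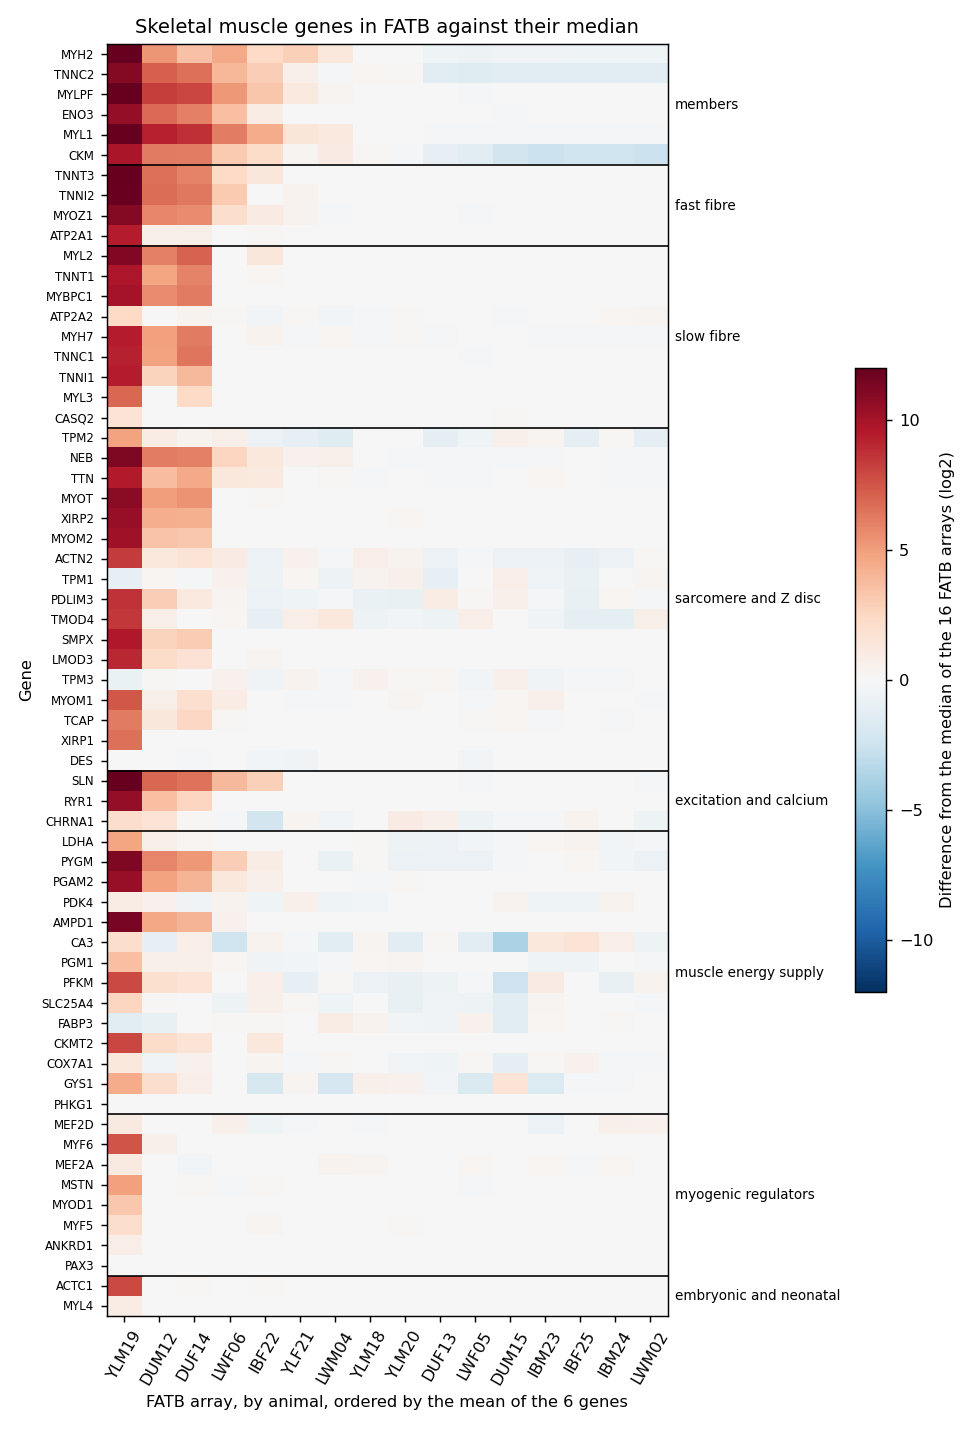
Difference of each gene from its median over the 16 FATB arrays (log2, colour; red is higher), with the 6 members and 57 other skeletal muscle genes in rows grouped by list and the arrays in the order of the mean of the 6 genes. YLM19 is red over nearly all lists, DUM12 and DUF14 over fast and slow fibre genes, and LWF06 over the members, 3 fast fibre genes and single others such as NEB, SLN and PYGM, with its slow fibre genes near 0.

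Of 57 other skeletal muscle genes measured, 44 were at least log2 2 above the FATB median in YLM19, where 3.004% of all probesets were so far above it. This count was 24 in DUM12 (0.417% of all probesets), 22 in DUF14 (0.342%), 6 in LWF06 (0.667%) and 1 in IBF22 (0.292%), and 0 in YLF21 and LWM04. The giant sarcomere proteins were among them: NEB (nebulin) was at 13.98, 8.90, 8.81 and 5.37 in YLM19, DUM12, DUF14 and LWF06, and TTN (titin) at 12.94, 7.17, 8.0 and 4.69. RYR1, the calcium release channel, was at 12.51 in YLM19, 5.63 in DUM12 and 4.54 in DUF14, and at most 2.02 in the other 13 pieces.

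Some muscle genes were high in YLM19 alone. MYF6, a myogenic regulator of mature fibres, was at 9.89 there and at most 2.93 elsewhere in FATB, and MSTN, the inhibitor of muscle growth, at 7.89 against at most 3.08. ATP2A1, the calcium pump of fast fibres, was at 11.86 against at most 3.15, and ACTC1, an actin of heart and embryonic muscle, at 10.37 against at most 2.57. DUM12 and DUF14, with CKM at 11.04 and 10.92, showed none of these 4 genes above log2 5. Of 4 heart genes, NPPA and NPPB were at 2.41 or below in all 16 pieces, TNNT2 was at 6.56 in YLM19 and at most 2.73 elsewhere, and TNNI3 reached 5.16 in DUF14 and was between 2.99 and 4.46 in the others.

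Adipocyte genes were lower in the piece with the highest muscle transcripts. Over 12 adipocyte genes the median difference from the FATB median was -1.70 in YLM19 and between -0.23 and 0.34 in the other 15 pieces. PPARG, the regulator of fat cell differentiation, was at 8.18 in YLM19 and between 10.58 and 11.11 in the others, and LPL at 11.08 against 12.49 or above. Not all members of the list took part: GPD1 was at 11.95 in YLM19 and at most 11.34 elsewhere. INSL3, a hormone of the testis, was also measured at 7.597 in YLM19 and 7.21 in the female LWF06 and at most 2.07 in the other pieces, and DSP, an epithelial gene, was at 7.13 in LWF06 and at most 4.19 elsewhere. Their part in the muscle transcripts was not tested.

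The genes most like the members were themselves muscle genes. By Pearson's r to the mean of the 6 genes over the 80 arrays, the first were SLN (0.960), TNNT3 (0.950), TNNI2 (0.948), NEB (0.937) and TTN (0.911), and all 10 at the head were in the muscle lists. Over the 16 FATB arrays all 10 were again in the lists, with r from 0.923 to 0.989, led by SLN, NEB and PYGM. SLN codes for sarcolipin, which slows the calcium pump, and PYGM for muscle glycogen phosphorylase. These correlations are taken over arrays that include the few high pieces and carry no p.

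The 57 other muscle genes were not used to pick the members, although they had been chosen with the values known. Their test uses the same FATB arrays in which the members stood apart. Genes of a piece share its RNA, so that the calls are not independent and give no separate support for FATB as a tissue. In limma on 80 arrays, with each of the 6 tissue groups set against the mean of the other 5 groups and breed as covariate, 40 of the 57 (70.2%) were higher in FATB at an adjusted p under 0.05 and 6 were lower, while 42.4% of all probesets were higher. The median difference was 0.64 for the list and 0.03 for all probesets. In FATB the calls comprised 3 of 4 fast fibre, 5 of 9 slow fibre, 12 of 17 sarcomere, 3 of 3 excitation and 10 of 14 energy genes. Without the 5 pieces named above, a choice made after seeing the data, 26 of 57 (45.6%) were higher, beside the 40.1% of all probesets, the list median was 0.04, and the number higher by over 0.5 fell from 31 to 11. TNNT3 then exceeded the other groups by 0.05 instead of 1.83 and SLN no longer passed. CA3 (7.11), FABP3 (5.15) and CHRNA1 (4.601) kept large differences without these pieces.

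In the other tissue groups fewer of the 57 genes were called, and the counts depended on the high backfat pieces. In HYPO 9 (15.8%) were higher with 24.9% of all probesets, in AHYP 5 with 26.6%, in THYG 7 with 26.5%, in GONAM 4 with 25.8% and in GONAF 6 with 21.7%. Without the 5 high FATB pieces they were 15 (26.3%) in HYPO with 25% of all probesets, 7 in AHYP with 26.7%, 10 in THYG with 26.5%, 9 in GONAM with 25.9% and 9 in GONAF with 21.9%. The genes called in HYPO included DES (6.56 higher, limma adjusted p = 6.3e-39) and PYGM (5.13 higher, adjusted p = 1.7e-17), but the 2 probesets of DES were at odds. In THYG they included ACTC1 (6.13 higher, adjusted p = 1.0e-32) and PDLIM3 (3.45 higher, adjusted p = 4.7e-14). Thus single muscle genes had levels of their own in these tissues while the members MYH2, MYL1 and MYLPF stayed at 3.78 or below in all 64 arrays outside FATB.

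**Figure D3:**
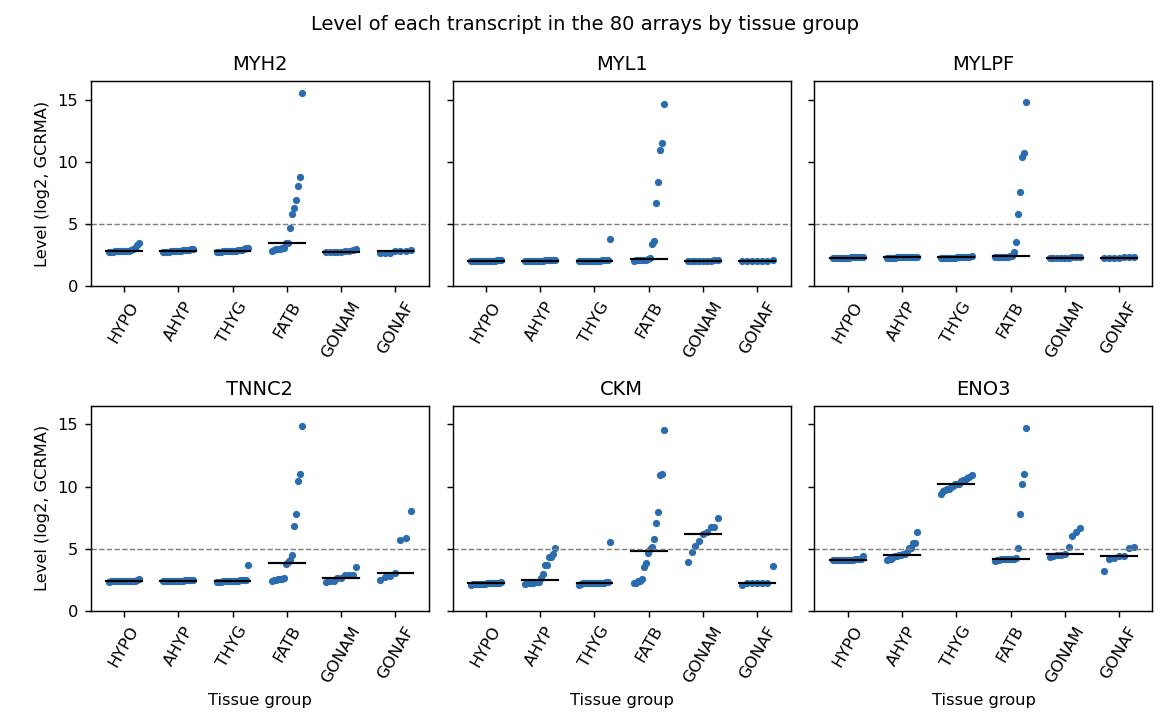
Level (log2, GCRMA) of each of the 6 genes in the 80 arrays, one point per array sorted by level within a tissue group, with the median as a line and log2 5 dashed. MYH2, MYL1 and MYLPF rise above log2 5 in FATB arrays only; ENO3 lies between 9.42 and 10.92 in all THYG arrays, CKM is raised in GONAM, and TNNC2 in 3 GONAF arrays.

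By group, MYH2 had a mean of 5.25 ± 3.40 (SD, n = 16) in FATB and between 2.78 and 2.92 in the other 5 groups, MYL1 4.901 ± 4.20 in FATB and 2.04 to 2.16 elsewhere, and MYLPF 4.81 ± 3.95 in FATB and 2.29 to 2.33 elsewhere. For all 3 genes FATB came first, but its range overlapped with that of every other group, and the steps between the other groups were within their SD. For TNNC2 the order was FATB (5.31 ± 3.82), GONAF (4.37 ± 2.18, n = 7), GONAM (2.74 ± 0.37, n = 9), THYG, AHYP and HYPO (2.42 ± 0.04), and ranges of neighbours overlapped at each step.

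The thyroid gland gave a different picture for each gene. ENO3 was at 9.42 to 10.92 with a median of 10.19 in the 16 THYG arrays (mean 10.18 ± 0.44), whereas the mean was 5.90 ± 3.27 in FATB, 5.16 ± 0.93 in GONAM, 4.73 ± 0.60 in AHYP, 4.39 ± 0.64 in GONAF and 4.14 ± 0.09 in HYPO. All 16 THYG values lay above every value of HYPO, AHYP and the gonads, and only the backfat of YLM19, DUM12 and DUF14 reached into their range or above it. The other 5 members were at background in 15 of the 16 thyroid pieces: CKM was between 2.06 and 2.36, MYL1 between 1.999 and 2.13, TNNC2 between 2.35 and 2.496, MYLPF between 2.25 and 2.39 and MYH2 between 2.73 and 3.06. In these 15 thyroid pieces ENO3 was hence the only member above background.

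Genes most like ENO3, named after its values were seen, were ACTC1 (r = 0.851), LDHA (0.825), the thyroid deiodinase IYD (0.799) and LRP2 (0.798) over the 80 arrays, with TG and TSHR among the first 10. Within THYG, DHDH (0.930) and SORD (0.871) came first over 16 arrays, and no muscle gene was among the 10.

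The thyroid piece of DUM12 was the exception. CKM was at 5.52, MYL1 at 3.78, TNNC2 at 3.67 and MYLPF at 2.47 there, each above the other 15 arrays, while MYH2 (2.81) was within their range and ENO3, at 9.42, was the lowest of the 16. TNNC1, the slow troponin C, was at 3.83 in this piece and at most 2.40 in the others. DUM12 was also the THYG array with the highest adipocyte genes: ADIPOQ was at 10.89 (median of the 16 arrays 6.63) and LIPE at 9.02 (median 3.68). Of 12 adipocyte genes, 8 were at least log2 2 above the THYG median in DUM12. So were 0.554% of all probesets, the largest share of the 16 arrays. LWM02 and YLM20 followed with 5 (0.442% of all probesets) and 4 (0.354%) of the 12, but CKM was at 2.23 and 2.36 in them. The part of fat around the gland in the muscle transcripts was not tested.

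Of the 10 genes most like the mean of the members over the 16 THYG arrays, 2 were muscle genes (TNNC1, r = 0.962, and MYL2, r = 0.954) and the first were CYP2C33 (0.968) and LOC100737483 (0.967). Among the 5 animals with all 6 genes above log2 5 in FATB, DUM12 was the only one with a member other than ENO3 above it in THYG. In YLM19, highest in FATB by far, CKM was at 2.24 and TNNC2 at 2.43 in THYG. A correlation between the 2 tissues is not given, since the FATB values fall into separate clusters, with the widest gap, 3.13 to 6.76 log2 according to the gene, just below YLM19.

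CKM in AHYP was low but differed between sexes. In the 7 females it was at 5.04 (IBF25), 4.57 (LWF05), 4.36 (LWF06), 4.33 (IBF22), 3.72 (YLF21), 3.67 (DUF14) and 2.97 (DUF13), and in the 9 males it was lowest at 2.19, with a median of 2.27 and a highest value of 2.62. Females and males did not overlap (0.313% of all probesets did not). The mean was 4.09 ± 0.69 (SD, n = 7) in females and 2.31 ± 0.12 (n = 9) in males, and with breed as covariate the difference of males from females was -1.74 ± 0.21 (SE). Since the level of CKM in AHYP was part of the choice of genes, no p is given for it. Between sexes 0.5% of all probesets were called in AHYP, and of the other 5 members none, with no unadjusted p under 0.05 (limma). CKM passed log2 5 in 1 AHYP array only, so that this is a difference at the low end of the scale.

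The other members and muscle genes were not raised with CKM in AHYP. MYH2 was between 2.72 and 3.02, MYL1 between 2.01 and 2.09, MYLPF between 2.28 and 2.37 and TNNC2 between 2.37 and 2.47 in the 16 arrays, with differences between sexes of at most 0.01 (limma, adjusted p = 1). ENO3 was between 4.10 and 6.33, highest in IBF25 (6.33), where CKM was highest too, and males differed from females by 0.03 ± 0.31 (SE). None of the 57 other muscle genes passed the test for sex in AHYP, and none was log2 2 above the AHYP median in any array.

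The 10 genes most like CKM over the 16 AHYP arrays contained no muscle gene. IFRD2 (r = 0.906), HYAL3 (0.898), PTGR2 (0.893) and SNTB1 (0.866), a syntrophin, came first, and FSHB, the subunit of follicle stimulating hormone, was the tenth (0.823). HYAL3, a hyaluronidase, was at 7.26 ± 1.52 in females and 2.63 ± 0.37 in males, and FSHB at 14.23 ± 0.51 and 10.16 ± 1.29. The sexes differ in CKM over these 16 arrays, and the r values are a description only.

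**Figure D4:**
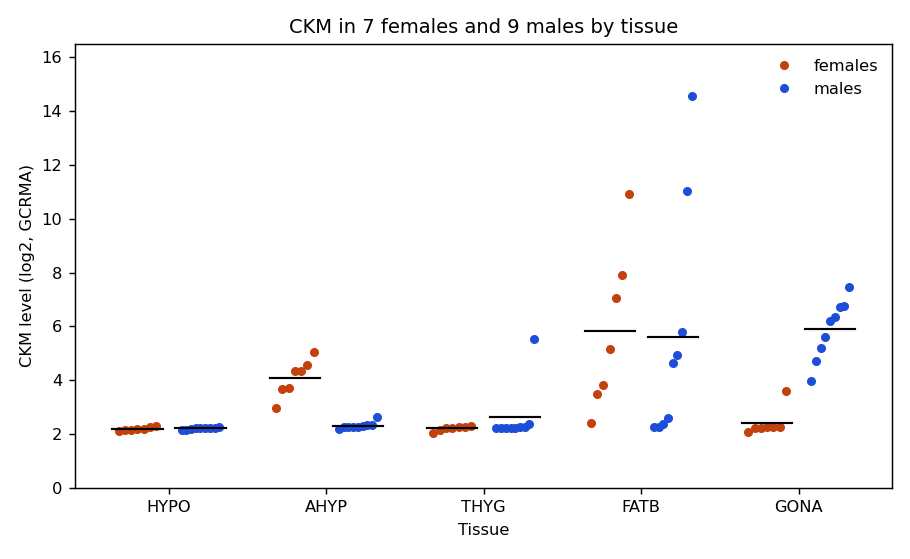
CKM level (log2, GCRMA) in 7 females and 9 males in each of the 5 tissues, one point per array, with the mean of each sex as a line. Females lie above males in AHYP (2.97 to 5.04 against 2.19 to 2.62) and below males in GONA (2.08 to 3.60 against 3.96 to 7.48), and the sexes overlap in the other tissues.

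In the gonads the difference in CKM ran the other way, but males gave testes and females ovaries, so that sex and organ cannot be told apart there. CKM was lowest at 3.96, with a median of 6.22 and a highest value of 7.48, in the 9 testes, and at 2.08 to 2.25 in 6 ovaries and 3.60 in that of IBF25. Testes and ovaries did not overlap, which held for 1 of the 6 members and 9.16% of all probesets. Testes were higher by 3.56 ± 0.45 (SE, limma, adjusted p = 9.36e-05), with 28.3% of all probesets called between these organs, and by 3.69 ± 0.47 without IBF25. Taking GONA minus AHYP in each animal, a comparison added after the values were seen, the difference of males from females was larger in GONA by 5.30 ± 0.43 (SE), given without a p as it uses the AHYP values (23.2% of all probesets were called). MYH2, MYL1 and MYLPF were at 2.97 or below in all 16 gonads, CKB, the brain form of creatine kinase, was at 5.06 or below in the 9 testes. Of the fast and slow fibre genes outside the members, MYOZ1 was above log2 5 in 2 testes (YLM19 at 7.06 and YLM20 at 5.70), TNNT1 in 3 gonads (at most 5.94), TNNI1 in 2 (at most 5.84), MYBPC1 in 1 (DUF14 at 6.30), and ATP2A2, a calcium pump of many tissues, in all 16.

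ENO3 and CKM were opposite among the testes. ENO3 was at 6.67 in YLM19, 6.33 in LWM02 and 6.05 in YLM20 and between 4.36 and 5.12 in the other 6, and CKM was at 5.20, 3.96 and 4.70 in these 3 testes and between 5.62 and 7.48 in the others. By genes named after their values were seen, the 3 testes were those with PRM1, the protamine of spermatids, at 12.03, 9.24 and 11.93, and at most 2.49 in the other 6. PGAM2, a glycolytic enzyme shared by muscle and testis, was at 9.49, 7.74 and 8.58 in them and at most 3.80 in the others. The part of spermatids in the level of ENO3 and CKM was not tested. Without the 3 testes, a setting chosen after the values were seen, CKM was higher in testes than in ovaries by 4.09. These 3 testes held the lowest CKM, so that leaving them out was bound to raise the mean of the testes, and no p is given.

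TNNC2 was present in 3 pieces labelled as ovary, at 8.06 in IBF25, 5.90 in LWF06 and 5.68 in LWF05, against 2.45 to 3.02 in the other 4 and 2.36 to 3.53 in the testes. The difference between testes and ovaries of -1.49 ± 0.68 (SE) did not pass (limma, adjusted p = 0.128), nor did that of -0.85 ± 0.36 without IBF25 (adjusted p = 0.101). Of 16 fits that each left out an animal, it passed only without IBF22 (-1.88, limma, adjusted p = 0.0442). IBF22 is among the 4 ovaries with low TNNC2, so that leaving it out widens the difference. MYH2, MYL1 and MYLPF were at background in these pieces, and CKM was so in LWF05 and LWF06 but at 3.60 in IBF25. SPA17, a protein of cilia and sperm tails, was also named after its values were seen. It was at 8.87, 8.45 and 7.996 in IBF25, LWF06 and LWF05 and at most 4.33 in the other ovaries. CKB was at 9.22, 7.82 and 7.29 in these pieces against at most 5.02. SPA17 was higher still in the testes of YLM19 (10.85), YLM20 (9.93) and LWM02 (9.39) and at most 6.11 in the other testes. TNNC2 was at 3.53 or below in all testes, so that SPA17 did not follow TNNC2 there. The genes most like TNNC2 over the 7 pieces labelled as ovary were named after its values were seen. The first were KRT18, a keratin of simple epithelia, FOXA2 and SLC34A2, each with r from 0.995 to 0.996. None of the 10 first was a muscle gene. These r are a description only, over arrays that include the 3 high pieces, of which IBF25 lacked defining markers of the ovary. Whether epithelium in these pieces carries the TNNC2 signal was not tested.

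**Figure D5:**
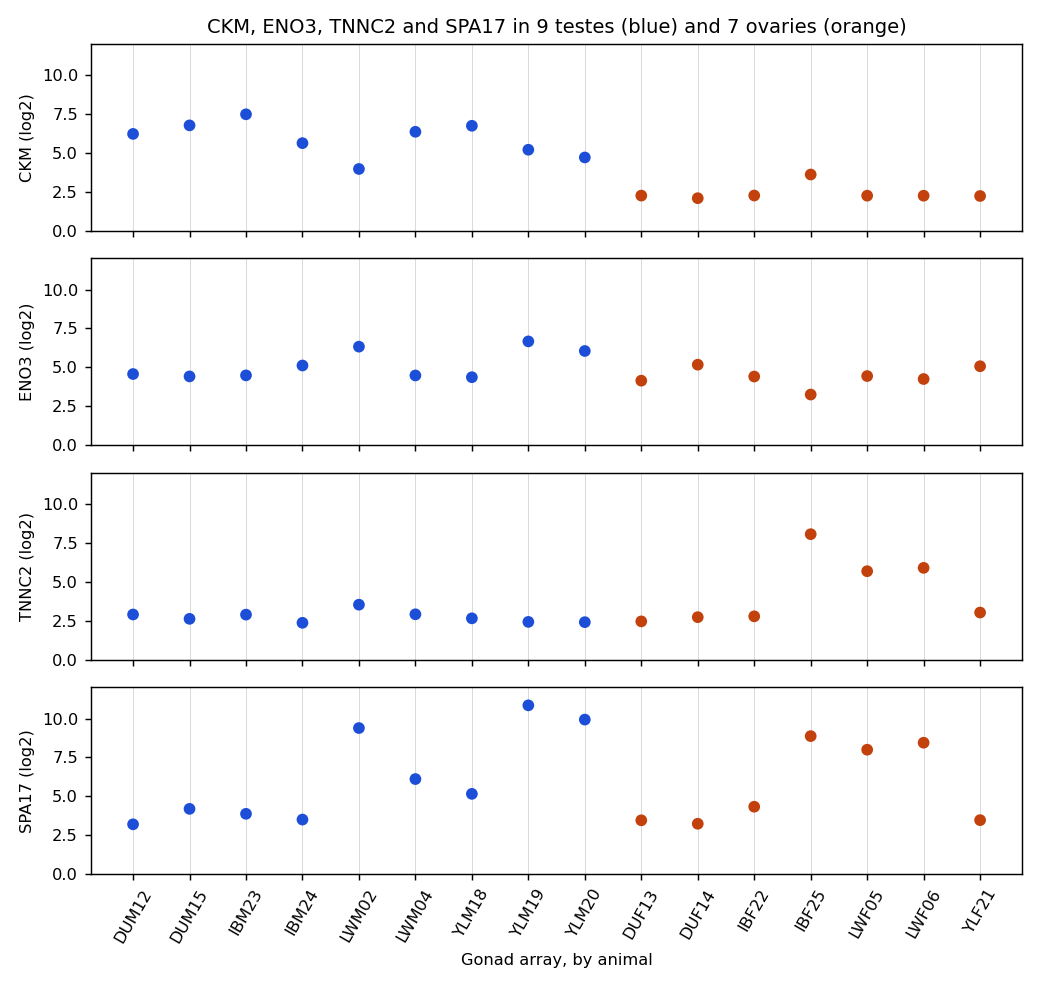
Level (log2, GCRMA) of CKM, ENO3, TNNC2 and SPA17 in the 16 gonads, one point per array, testes in blue and ovaries in orange. ENO3 is highest in the testes of LWM02, YLM19 and YLM20, where CKM is lowest. TNNC2 is high in the pieces labelled as ovary of IBF25, LWF05 and LWF06, where SPA17 is high as well. SPA17 is highest in the testes of LWM02, YLM19 and YLM20, where TNNC2 is at most 3.53.

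In HYPO all 6 genes were at background. CKM was between 2.12 and 2.30, MYL1 between 2.01 and 2.14, MYLPF between 2.27 and 2.39, TNNC2 between 2.36 and 2.53 and ENO3 between 4.09 and 4.45, and MYH2 reached 3.46 in LWF05 and 3.34 in IBF22. Other muscle genes were found without them. TNNT1 ranged from 2.48 to 8.86 in HYPO. It was highest in LWF06, the piece with low hypothalamus genes, and at most 6.81 in the other 15. Of 9 slow fibre genes, 3 were at least log2 2 above the HYPO median in LWF06 (0.946% of all probesets). In each of the other 15 pieces at most 1 was. The part of the origin of the LWF06 piece in the level of these genes was not tested.

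Breed was tested within each tissue by the moderated F of limma with sex as covariate. None of the 6 members passed in any tissue. The members had been picked for single FATB and THYG pieces that stood far apart, which widens the spread within a breed. Their outcome in FATB, in THYG and in FATB minus THYG hence does not show that breed has no effect. The lowest adjusted p was 0.585 in FATB (0.817% of all probesets called), 0.7 in THYG (0.575%), 0.29 in AHYP (0.3%), 0.911 in HYPO (0.171%) and 0.729 in GONA (0.05%). At an unadjusted p under 0.05 there was 1 member, MYH2 in AHYP, with breed means between 2.78 (YL) and 2.95 (IB). In FATB CKM was at 7.34 ± 4.82 in YL, 7.09 ± 4.52 in DU, 4.86 ± 2.52 in LW and 3.52 ± 2.36 in IB (SD, n = 4 each). The SD in YL and in DU was larger than the distance from the lowest to the highest breed mean. In LW and IB it was smaller. With 1 residual variance for all probesets in place of one for each, all 6 members passed in FATB, CKM in THYG and TNNC2 in GONA. That setting takes no account of the wide spread of these genes within a breed, so that its calls are not read as an effect of breed. No member was called for a difference of the breed effect between FATB and THYG (FATB minus THYG in each animal, limma, lowest adjusted p = 0.917, 0 members at an unadjusted p under 0.05), with 0.117% of all probesets called.

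Sex, with breed as covariate, called none of the members in FATB (0.05% of all probesets called), THYG (0.0792%) and HYPO (0.0667%), where no unadjusted p was under 0.05 either. In FATB males differed from females by -0.67 ± 1.92 (SE) for CKM and by 0.18 ± 1.75 for ENO3, errors wide enough to allow large differences of both signs. The choice of genes for single high pieces widens the spread in FATB and THYG for these tests too.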

How the data were processed

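RNA of 80 tissue pieces was hybridized to the porcine Affymetrix array, and the authors normalized all CEL files together with GCRMA, so that the deposited values are log2 expression levels, with array medians between 4.67 and 5.04. Control probesets (124) were left out, and 23999 were tested. All columns were assigned to a sample (0 unmapped). Genes came from the platform annotation, which can be old. The members and all gene lists were chosen with earlier results of these data known. The named genes were all members, up to 4 genes per list with the highest maximum or any past a test, and the 10 with the highest Pearson's r to a member pattern; others are said to be named after their values were seen.

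limma 3.58.1 in R 4.3.3 was run with lmFit and eBayes over all probesets, and p-values were adjusted after Benjamini and Hochberg with a threshold of 0.05. Breed (with sex as covariate) and sex (with breed) were fitted within each tissue on 16 arrays, and the 6 tissue groups on 80 arrays with breed. Replicates were separate animals, and tissues were paired by the animal numbers. Deviations from the group means correlated with a mean r of 0.0978 (HYPO and GONA) to 0.352 (THYG and AHYP) for arrays of the same animal. For arrays of other animals the mean r was -0.00665 (HYPO and GONA) to -0.0219 (THYG and AHYP). Breed, and outside the gonads sex, remain in these deviations, so that they cannot test the pairing within a breed. The scripts were tested on simulated data. Alternatives comprised a filter on dim probesets, other estimates of the spread, array weights, quantile normalization, the animal as replicate block, other marks than log2 5 and leaving out each animal.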

Additional observations from a re-analysis of the deposited data

Results flagged for a closer look

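An array was set apart where its gap to the nearest of the others was wide against the range of its group by Dixon's criterion, in 37 groups (the 4 animals of a breed in a tissue, testes or ovaries) that held a value above log2 5. There were 15 such cases. Chance alone marks about 1 in 20 groups, but the genes and groups were chosen for high single values, so that the count cannot be read against this rate and only describes which pieces they are. Of the Iberian backfat pieces, IBF22 stood apart with MYH2 at 5.823, TNNC2 at 6.854, MYLPF at 5.788, ENO3 at 5.062, MYL1 at 6.713 and CKM at 7.051. Of the Youli pieces YLM19 stood apart with TNNC2 at 14.85, MYLPF at 14.80, ENO3 at 14.72, MYL1 at 14.65 and CKM at 14.57. Of the Large White pieces LWF06 stood apart with MYLPF at 7.589 and ENO3 at 7.768. In THYG it was DUM12 for CKM among the Duroc (5.516), and the female YLF21 for ENO3 among the Youli (10.19, the 3 males at 9.74 to 9.80). The 6 genes of one backfat piece share its RNA and are not independent cases.

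The difference in CKM between males and females had opposite signs in AHYP and GONA, but in GONA sex cannot be told apart from organ, testis or ovary. It was larger in GONA than in AHYP by 5.302 ± 0.43 (SE, limma on GONA minus AHYP of 16 animals; no p is given, since CKM in AHYP was part of the choice of genes), testes being above ovaries and male adenohypophyses below female ones.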

How the results depend on the processing

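Of the settings other than leaving out an animal, 102 values kept their side of the threshold or stayed within 1.5 times the reported count, and 11 did not. With 1 residual variance for all probesets the members called for breed rose from 0 to 6 in FATB, to 1 in THYG and to 1 in GONA, and those called for sex in GONA to 2. This setting takes no account of the spread of each gene, so that the added calls are not read as effects. With probesets above log2 5 in at least 4 arrays, 0 members were called for sex in AHYP, since CKM was not tested, and 17 muscle genes were higher in FATB, since fewer were tested. Without the 5 high FATB arrays, a setting chosen after seeing the data, 26 muscle genes were higher in FATB, 15 in HYPO and 9 in GONAM, and without YLM19 alone 7 in GONAM. At a mark of log2 4, near its floor, ENO3 passed in all 16 FATB arrays. Leaving out each animal gave 1 to 2 members called for sex in GONA, with 2 only without IBF22, and 34 to 41 muscle genes higher in FATB. CKM males minus females ranged from -1.90 to -1.61 in AHYP and from 3.37 to 3.86 in GONA. With the animal as replicate block (consensus correlation 0.0701) the counts of muscle genes higher were unchanged, 40 in FATB and 9 in HYPO, and breed in FATB against THYG without the pairing called 0 members. The relation between FATB and THYG was not run, as the values form separate clusters. The number of arrays limits all breed comparisons, and values near the floor have no reliable order.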
